A study of Mus musculus with 6 samples.

Results

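Cells carry receptors that detect foreign or misplaced nucleic acid in the cytosol, and 10 genes of this machinery were examined in mouse embryonic stem (ES) cells with and without Morc3. They were taken by symbol from the 24054 gene rows of the deposited count files: the RNA receptors Ddx58 (RIG-I), Ifih1 (MDA5) and Dhx58 (LGP2), the DNA receptor Mb21d1 (cGAS), the receptor Zbp1, the adaptors Mavs and Tmem173 (STING), the kinases Tbk1 and Ikbke, and the transcription factor Irf3. Morc3 is an ATPase of the MORC family that the study examined as a factor in the silencing of endogenous retroviruses (ERVs). All 10 genes had a row, 9 had at least 1 count in some library, and 8 passed the filter on low counts and were tested.

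The 6 libraries came from 2 groups of feeder-independent ES cells, all grown on gelatin with serum and LIF with no treatment named in the labels. The Morc3 ko group held 3 lines (KO27-1, KO27-2 and KO27-3, called ko clone 1, 2 and 3 here), each of them a single clone made with Cas9 and puromycin selection from the wild-type line, per the methods of the study. The wild-type group held 3 cultures of that line (WT26), titled p42, p43 and p56, where the letter p is not explained. The sources used here do not say that the wild-type cultures went through transfection, selection and cloning, so those steps and the loss of Morc3 cannot be told apart. The study counts the 3 libraries of a group as biological replicates, but the wild-type ones are cultures of 1 line, and p-values measure the spread between these samples only.

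In background terms, RIG-I and MDA5 are helicases that bind double-stranded RNA, RIG-I preferring ends that carry a triphosphate and MDA5 preferring long duplexes, while LGP2 lacks the signalling domain and modulates both. Both receptors signal through MAVS on the mitochondrial surface. cGAS binds double-stranded DNA and makes the messenger cyclic GMP-AMP, which activates STING. The MAVS and STING branches meet at the kinases TBK1 and IKKε (encoded by Ikbke), which phosphorylate IRF3, the factor that switches on the interferon β gene. ZBP1 binds nucleic acid in the Z form and signals through RIPK3 to cell death. ES cells are known for a weak interferon response, and transcripts of repeats such as ERVs are among the RNAs that RIG-I-like receptors can bind.

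Sense-strand counts assigned to genes came to 10740618 to 11525164 in the ko libraries and 13013286 to 14123131 in the wild-type libraries. Levels are given as CPM, which are counts scaled to a common library size, always in the order of ko clones 1, 2 and 3 and of the wild-type cultures p42, p43 and p56. Morc3 itself stood at 77.8, 137.9 and 134.6 CPM in the ko clones and at 276.8, 272.0 and 302.2 CPM in the wild-type cultures, so every ko clone lay below every wild-type culture. The ES cell markers Pou5f1, Nanog, Sox2, Zfp42, Esrrb, Klf4, Tdgf1 and Dppa5a were all measured, and none of the 8 was called. Their summed level was 6029 to 6143 CPM in ko and 5520 to 5640 CPM in wild-type libraries, so every ko sum lay above every wild-type sum. Their log2 fold changes ran from −0.09 for Tdgf1 to 0.43 for Dppa5a (edgeR adjusted p = 0.517 and 0.0231). Of 8 myeloid markers, 4 (Csf1r, Emr1, Lyz2, Tyrobp) were at 0 in all libraries, and the list summed to 6.75 to 8.30 CPM in ko and 7.91 to 8.26 CPM in wild type. Most of that sum was Cd68, which was detected in every library at 5.73 to 7.24 CPM and was not called. Of 8 fibroblast markers, Dcn and Postn were at 0, Thy1 was called lower in ko cells with a log2 fold change of −0.86 (SE 0.14, adjusted p = 0.00640 by edgeR), and the list summed to 7.15 to 8.32 CPM in ko and 11.8 to 12.7 CPM in wild type. The part of this fibroblast list in the results that follow was not tested. Wild-type p56 stood apart from p42 and p43 at several genes, and without it 385 genes were called in place of 156, so the sensor genes that it moved most are also described without it.

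Of the 8 tested sensor genes, Ddx58 alone was called, and it was higher in the ko clones. Ddx58 had already been called in an earlier analysis of these data, and the sensor genes were chosen with earlier results known. Its call and the counts below that include it are therefore a description and no separate support. The call rule was an adjusted p under 0.01 in edgeR's quasi-likelihood test, adjusted by the Benjamini-Hochberg method over all 12222 genes tested. Under that rule 156 genes (1.28% of those tested) were called in either direction and 105 (0.859%) were called higher. At an unadjusted p under 0.05, 3 of the 8 sensor genes passed (Ddx58, Dhx58 and Ikbke), against 14.3% of all genes tested. The ko and wild-type libraries did not overlap in CPM for the same 3 genes, against 19.9% of all genes tested, with Ddx58 above and the other two below the wild type. The median log2 fold change of the 8 was −0.0075, beside −0.00010 over all genes tested, with 4 values above 0 and 4 below.

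**Figure D1:**
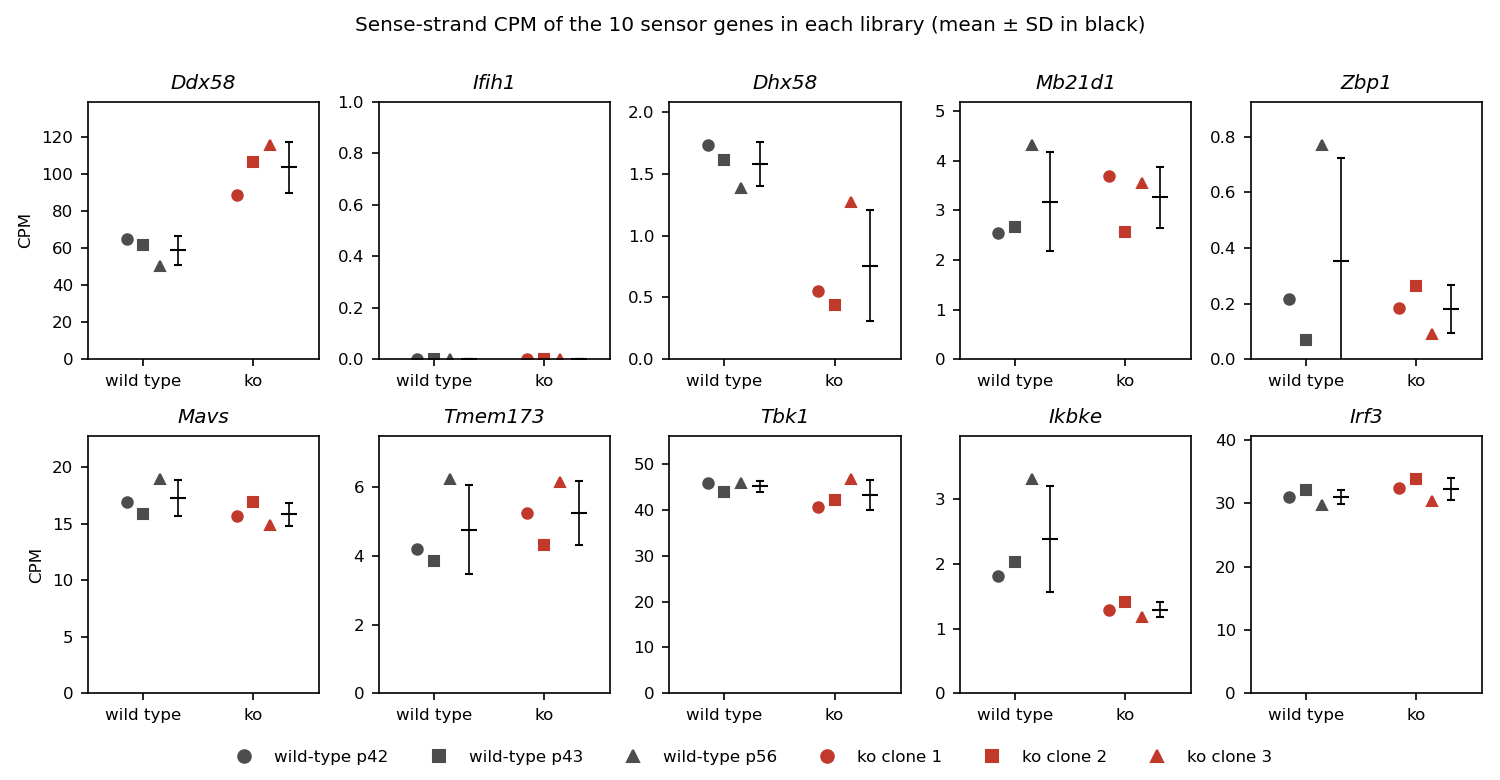
CPM on the vertical axis (linear, from 0, a scale of its own in each panel) for each of the 10 sensor genes, with wild-type libraries in grey, ko libraries in red, 1 point per library and the mean ± SD of each group of 3 in black. The ko points of Ddx58 lie at 89.0 to 116.2 CPM, above the wild-type points at 50.2 to 64.9 CPM, all points of Ifih1 lie at 0, and the SD bar of wild-type Zbp1 runs below 0 and is clipped there.

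Ddx58 encodes RIG-I, the receptor for RNA ends. The gene lies on the minus strand of chromosome 4 at 40203777 to 40239825 (GRCm38, the assembly that mm10 names). Its level was 89.0, 106.5 and 116.2 CPM in the ko clones and 64.9, 62.0 and 50.2 CPM in the wild-type cultures. The lowest ko clone was above the highest wild-type culture. The means were 103.9 ± 13.8 CPM in ko and 59.0 ± 7.78 CPM in wild-type cells (SD, n = 3 each), a 1.76-fold difference, from 963 to 1280 counts per ko library and 650 to 896 per wild-type library. This gave a log2 fold change of 0.82 (SE 0.11, 95% interval 0.57 to 1.06, edgeR adjusted p = 0.00163). In bulk RNA, a change in the share of cells that express a gene and a change in the RNA per cell cannot be told apart.

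The size of the Ddx58 difference moved little when any 1 library was left out, but its call was lost without ko clone 2 and without ko clone 3. Without ko clone 2 the log2 fold change was 0.80 (95% interval 0.50 to 1.10) and edgeR's adjusted p rose to 0.0200, above the threshold. Without ko clone 3 it was 0.73 (0.46 to 1.00) with an edgeR adjusted p of 0.0206. Wild-type p56 held the lowest Ddx58 value, and without that culture the log2 fold change was 0.71 (0.53 to 0.90) with an edgeR adjusted p of 9.31e-06.

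The 250 bases of genomic sequence before the annotated start of Ddx58 are shown because this was the sensor gene that rose, and those of Ifih1 because it is the related receptor that had no counts. Both come from the RefSeq promoter table for GRCm38.p6, used here for 7 of the 10 genes (Ddx58, Ifih1, Mavs, Mb21d1, Tbk1, Ikbke and Irf3). They are written 5′ to 3′ on the strand of the gene, which is the minus strand for both, and end at the base before the start. Capitals mark matches to the motifs searched, and lower case is all other sequence.
Ddx58, chr4:40239826-40240075: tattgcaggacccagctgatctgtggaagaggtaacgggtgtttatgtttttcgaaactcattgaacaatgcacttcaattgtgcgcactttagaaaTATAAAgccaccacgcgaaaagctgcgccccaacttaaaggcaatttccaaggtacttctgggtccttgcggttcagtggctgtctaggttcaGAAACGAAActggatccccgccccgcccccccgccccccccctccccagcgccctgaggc
Ifih1, chr2:62646256-62646505: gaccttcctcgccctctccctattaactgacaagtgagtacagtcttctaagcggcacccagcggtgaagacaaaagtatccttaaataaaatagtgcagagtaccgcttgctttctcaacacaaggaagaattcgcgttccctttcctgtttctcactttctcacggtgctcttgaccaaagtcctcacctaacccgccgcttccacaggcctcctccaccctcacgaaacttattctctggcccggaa

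The windows were searched on both strands for the core of the interferon-stimulated response element (ISRE) written as GAAA, any 2 bases and GAAA again, for a close form with 1 base fewer between the repeats written as GAAANGAAA, for TATAAA, and for the NF-kappaB site by its usual consensus. The ISRE is the element bound by interferon-activated factors and by IRF3. In the Ddx58 window the close form matched once, as GAAACGAAA with 51 bases between it and the start, and TATAAA matched once with 147 bases between it and the start. The close form was added to the search after the Ddx58 sequence had been read. No window of the other 6 genes used held any of the 4 motifs, and no window of the 7 held the ISRE core or the NF-kappaB site. Windows of Dhx58, Zbp1 and Tmem173 were not searched. Among 32851 promoter windows of the same length, 2.98% held the ISRE core, 2.68% the close form, 12.4% TATAAA and 7.25% the NF-kappaB site. Base composition differed between the windows. The Tbk1 window held 31 CpG dinucleotides at 68.4% GC and the Ikbke window 4 at 54.4% GC, with 12 at 53.6% GC in Ddx58 and 11 at 50% GC in Ifih1. The median over all windows was 6 CpG at 52.4% GC. A match is a description of letters, and binding was not measured.

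Ifih1, which encodes MDA5, the receptor for long RNA duplexes, had 0 counts in all 6 libraries. The gene lies on the minus strand of chromosome 2 at 62595618 to 62646255 and spans 5470 bases of exon, the longest of the 10. A count of 0 allows up to 3 counts, which is 0.210 to 0.277 CPM in a single library, 0.0904 CPM over the 3 ko libraries and 0.0731 CPM over the 3 wild-type libraries. These limits cover counting error only. The row was also at 0 in the counts that ignore strand and in those of the opposite strand. Of all gene rows, 6532 (27.2%) were at 0 in every library. A difference between the groups was not detectable at this depth, and no fold is given.

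Dhx58 encodes LGP2, the helicase that modulates RIG-I and MDA5, and lies on the minus strand of chromosome 11 at 100694884 to 100704271. Its counts were low, at 6, 5 and 14 in the ko clones and 24, 23 and 18 in the wild-type cultures. In CPM these were 0.554, 0.441 and 1.27 against 1.74, 1.61 and 1.39, so the highest ko clone, clone 3, lay just under the lowest wild-type culture, p56. Its fitted log2 fold change was −1.06 (SE 0.38, 95% interval −1.89 to −0.22), with an unadjusted edgeR p of 0.0173 and an edgeR adjusted p of 0.211, and the gene was not called. Leaving out ko clone 3 gave −1.65 and leaving out ko clone 2 gave −0.78, with edgeR adjusted p of 0.114 and 0.608.

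The RIG-I-like receptors stood at very different transcript levels. Per kilobase of exon, a scale that allows genes to be compared, wild-type cells had 15.2 CPM per kb of Ddx58, 0.655 of Dhx58 and 0 of Ifih1. In ko cells the levels were 26.8, 0.313 and 0 CPM per kb. Ddx58 counts in each library were set against Dhx58 counts in the same library, with a prior count of 2 added to both. Apart from that prior, the ratio needs no scaling between libraries. The log2 ratio was 6.91, 7.43 and 6.32 in the ko clones and 5.11, 5.15 and 5.03 in the wild-type cultures, a difference of 1.79. With a prior count of 0.5 the difference was 1.96, as the low Dhx58 counts make the ratio depend on the prior.

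Mavs encodes the adaptor of both RNA receptors and lies on the plus strand of chromosome 2 at 131234063 to 131248025. It was at 15.7, 16.9 and 14.9 CPM in the ko clones and 16.9, 15.9 and 19.0 CPM in the wild-type cultures, with the groups overlapping. Its log2 fold change was −0.12 (SE 0.11, 95% interval −0.37 to 0.12, edgeR adjusted p = 0.698). A change of the size fitted for Ddx58 lay outside the interval. Without p56, the highest wild-type culture, the value was −0.05 (−0.28 to 0.18).

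On the DNA side, neither cGAS nor STING was called. Mb21d1, the cGAS gene, lies on the minus strand of chromosome 9 at 78430518 to 78443237. It was at 3.70, 2.56 and 3.54 CPM in the ko clones and 2.53, 2.66 and 4.32 CPM in the wild-type cultures, from 29 to 56 counts. The ranges overlapped almost fully, and the log2 fold change was 0.05 (SE 0.26, 95% interval −0.52 to 0.61, edgeR adjusted p = 0.963). Tmem173, the STING gene, was at 5.27, 4.33 and 6.17 CPM in the ko clones and 4.20, 3.85 and 6.25 CPM in the wild-type cultures. Its log2 fold change was 0.14 (SE 0.22, 95% interval −0.33 to 0.62, edgeR adjusted p = 0.834). For both genes p56 was the highest wild-type culture. Without it the fitted log2 changes were 0.33 (−0.18 to 0.83) for Mb21d1 and 0.38 (−0.03 to 0.80) for Tmem173, with edgeR adjusted p of 0.510 and 0.311.

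The kinases differed from each other in level and in spread. Tbk1, the kinase that both branches use, lies on the minus strand of chromosome 10 at 121546455 to 121586794. It was at 40.7, 42.2 and 46.7 CPM in the ko clones and 45.8, 43.8 and 45.7 CPM in the wild-type cultures. Its log2 fold change was −0.06 (SE 0.08, edgeR adjusted p = 0.798), and the 95% interval from −0.23 to 0.11 was the narrowest of the 8.

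Ikbke, which encodes the related kinase IKKε, lies on the minus strand of chromosome 1 at 131254600 to 131279601. It was at 1.29, 1.41 and 1.18 CPM in the ko clones, from 13 to 16 counts, and at 1.81, 2.03 and 3.32 CPM in the wild-type cultures, from 25 to 43 counts. Every ko clone lay below every wild-type culture. The log2 fold change was −0.87 (SE 0.31, 95% interval −1.54 to −0.20), with an unadjusted edgeR p of 0.0153 and an edgeR adjusted p of 0.200, and the gene was not called. Part of this size came from p56, and without that culture it was −0.56 (−1.20 to 0.08) with an edgeR adjusted p of 0.339.

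Irf3, the factor downstream of both kinases, lies on the plus strand of chromosome 7 at 44997648 to 45002848. It was at 32.4, 33.9 and 30.4 CPM in the ko clones and 31.1, 32.1 and 29.8 CPM in the wild-type cultures, with the groups overlapping. Its change was small on the log2 scale, at 0.06 (SE 0.08, 95% interval −0.13 to 0.24, edgeR adjusted p = 0.833), and it was 0.03 without p56. The gene overlaps Bcl2l12 on the opposite strand by 1065 bases, and the counts used here are strand-specific. Over all 10 sensor genes, the opposite strand held 34 counts against 13595 sense counts (0.249%), and at most 3 for a gene in a library.

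Zbp1, the receptor for Z-form nucleic acid, lies on the minus strand of chromosome 2 at 173206612 to 173218959. It had 2, 3 and 1 counts in the ko clones and 3, 1 and 10 counts in the wild-type cultures. It did not pass the filter, 10 of its 14 wild-type counts came from p56, and no fold is given.

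**Figure D2:**
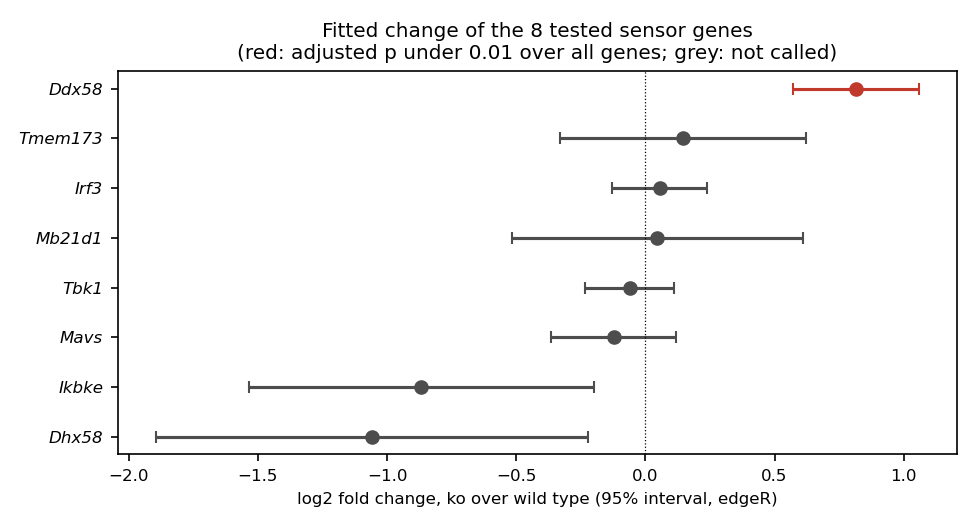
Fitted log2 fold change of ko over wild type on the horizontal axis for the 8 tested sensor genes, ordered from highest to lowest, with 95% intervals from edgeR. The interval of Ddx58 (red, called) runs from 0.57 to 1.06, those of Dhx58 and Ikbke lie below 0 without a call, and those of the other 5 genes cross 0.

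Per kilobase of exon, the wild-type order was Ddx58 (15.2 CPM per kb), Tbk1 (14.9), Irf3 (14.2), Mavs (5.58), Tmem173 (2.07), Mb21d1 (0.777), Ikbke (0.721), Dhx58 (0.655), Zbp1 (0.163) and Ifih1 (0). The wild-type ranges of Ddx58 and Tbk1 overlapped, as did those of Tbk1 and Irf3, of Mb21d1 and Ikbke, and of Ikbke and Dhx58. Irf3 and Mavs, Mavs and Tmem173, Tmem173 and Mb21d1, Dhx58 and Zbp1, and Zbp1 and Ifih1 did not overlap. Among 15249 genes with counts and an annotated exon length, Ddx58 stood at percentile 74.5 in wild-type cells, Mavs at 57.7, Tmem173 at 43.9, Mb21d1 at 34.5 and Dhx58 at 33.0.

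In the ko clones Ddx58 (26.8 CPM per kb) was no longer level with Irf3 (14.7) and Tbk1 (14.3). The lowest ko value of Ddx58, 23.0 CPM per kb, lay above the highest of Irf3 at 15.5. Irf3 and Tbk1 overlapped each other, as did Ikbke (0.391) and Dhx58 (0.313), and Mb21d1 (0.800) lay above Ikbke without overlap. Levels per kilobase rest on the union of coding-transcript exons in the annotation and not on the isoforms that ES cells use.

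**Figure D3:**
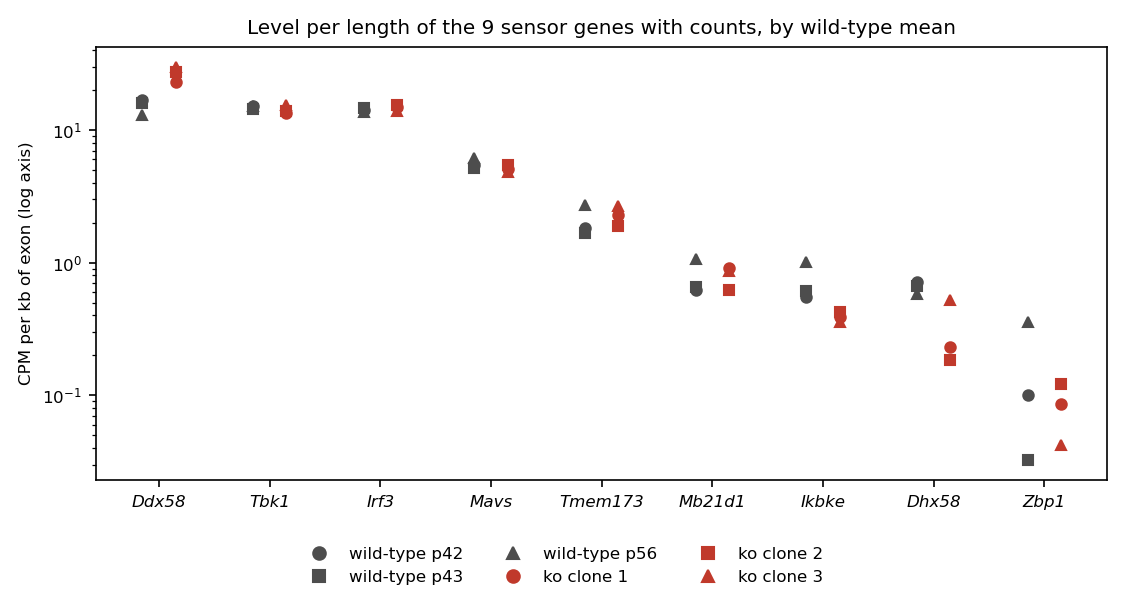
CPM per kb of exon on a logarithmic vertical axis for the 9 sensor genes with counts, ordered by wild-type mean, with 1 point per library (grey for wild type, red for ko). Ddx58, Tbk1 and Irf3 lie together at 14.2 to 15.2 CPM per kb in the wild-type means, and Ddx58 alone lies at 26.8 in the ko mean.

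To describe how Ddx58 stood relative to its partners inside a library, the log2 ratio of its counts to theirs was compared between groups. Each other tested sensor gene was used, with a prior count of 2 added to both counts. Ddx58 was already known to be higher in the ko libraries, so the ratios restate that difference against each partner and are no separate support. Against Tbk1 the ratio was 1.13, 1.33 and 1.31 in the ko clones and 0.50, 0.50 and 0.13 in the wild-type cultures, a difference of 0.88. Against Mavs it was 2.49, 2.64 and 2.95 in the ko clones and 1.93, 1.95 and 1.39 in the wild-type cultures, a difference of 0.93. In both ratios every ko clone lay above every wild-type culture. The difference was 0.76 against Irf3, 1.55 against Ikbke, 0.65 against Tmem173 and 0.74 against Mb21d1. Without p56 the differences against Tmem173 and Mb21d1 fell to 0.33 and 0.39. Groups did not overlap in 6 of the 7 ratios (two-sided exact permutation p = 0.1 for each, the smallest that 3 against 3 allows, and 0.117 after Benjamini-Hochberg adjustment over the 7). For Mb21d1 they overlapped (exact permutation p = 0.2). The design could not reach 0.05 in this test, and the 7 ratios share the Ddx58 counts. The CPM of Ddx58 itself did not overlap between groups, which held for 19.9% of all genes tested. No such share was computed for ratios to genes outside the 7.

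**Figure D4:**
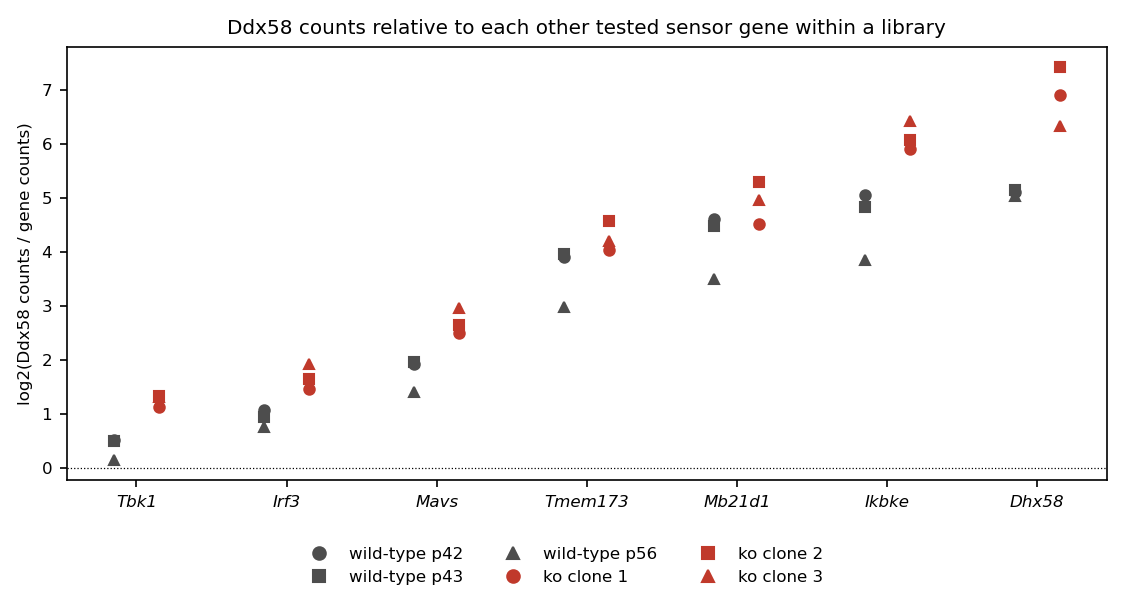
Log2 of Ddx58 counts over the counts of each other tested sensor gene in the same library (vertical axis, with a prior count of 2 added to both), 1 point per library, with wild type in grey and ko in red. The red points lie above the grey ones for every gene except Mb21d1, where ko clone 1 at 4.52 falls below wild-type p42 at 4.60.

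The genes on both sides of Ddx58 were not called. Aco1, an aconitase that also acts as an iron-responsive RNA-binding protein, lies at 40143265 to 40199009. Its lowest coordinate is 60.5 kb below the lowest coordinate of Ddx58. Aco1 had 92.1 ± 1.62 CPM in ko and 85.6 ± 7.88 CPM in wild-type cells (SD, n = 3 each). Its log2 fold change was 0.11 (SE 0.08, 95% interval −0.06 to 0.27, edgeR adjusted p = 0.602). Topors, a ubiquitin and SUMO ligase, lies at 40259606 to 40269841, with its lowest coordinate 55.8 kb above the lowest coordinate of Ddx58. Topors had 307.2 ± 27.0 CPM in ko and 267.3 ± 5.66 CPM in wild-type cells. Its log2 fold change was 0.20 (SE 0.07, 95% interval 0.05 to 0.35, edgeR adjusted p = 0.195). Every ko clone (277.4 to 330.1 CPM) lay above every wild-type culture (262.9 to 273.7 CPM) for Topors, while the groups of Aco1 overlapped. Groups without overlap were found for 19.9% of all genes tested.

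The genes whose pattern over the 6 libraries was nearest to that of Ddx58 were Akr1b8, Zmat4 and Pmel. Nearness was the root mean square difference between log2 CPM values centred on each gene's mean, which was 0.0851 for Akr1b8, 0.109 for Zmat4 and 0.111 for Pmel among 12221 genes compared. Akr1b8 encodes an aldo-keto reductase, Zmat4 a zinc finger protein and Pmel a melanosome matrix protein. Their fitted changes (log2 of ko over wild type) were 0.82, 0.62 and 0.65, and edgeR gave adjusted p of 0.0119, 0.0133 and 0.00981, so that Pmel alone of the 3 was called. This is a description over 6 libraries that fall into 2 groups.

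The other genes of the pathways were taken from 5 lists holding 86 genes, of which 66 were tested. 2 of the 66 (3.03%) were called, beside 1.28% of all genes tested, and both were lower in the ko clones. The median log2 fold change of the 66 was 0.0046. An unadjusted edgeR p under 0.05 was reached by 10 (15.2%, beside 14.3% of all genes), and 16 (24.2%, beside 19.9%) had groups that did not overlap, 9 with ko above and 7 with ko below. These shares are given as a description of the lists.

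Aim2, the DNA receptor that assembles an inflammasome rather than signalling through STING, was the first of the called genes. It was at 27.9, 31.96 and 30.2 CPM in the ko clones and 53.8, 49.9 and 47.6 CPM in the wild-type cultures. The groups lay far apart, at 30.0 ± 2.03 against 50.5 ± 3.12 CPM (SD, n = 3 each). In the fit this was a log2 fold change of −0.75 (SE 0.09, 95% interval −0.93 to −0.56, edgeR adjusted p = 4.15e-04). It was called in all 13 alternative fits, with the log2 fold change between −0.79 and −0.69. Of the related genes in the list of DNA cofactors, Ifi203, Ifi204 and Mnda were at 0 in every library.

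Oas1a encodes a synthetase of 2′-5′ oligoadenylate, the messenger that double-stranded RNA elicits to activate RNase L. It was at 3.60, 4.15 and 4.08 CPM in the ko clones and 7.46, 8.05 and 9.19 CPM in the wild-type cultures, with no overlap. The log2 fold change was −1.06 (SE 0.16, edgeR adjusted p = 0.00324). The call was lost when any 1 ko clone or wild-type p43 was left out, with edgeR adjusted p of up to 0.0261 and log2 fold changes from −1.09 to −0.99 in those fits.

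The list of RNA-sensing cofactors had 21 genes, of which 19 were tested, Oas1a was called lower and none was called higher, with a median log2 fold change of 0.06. Its highest value belonged to Rnf125, a ubiquitin ligase that targets RIG-I, at 22.6 ± 0.449 CPM in ko and 16.7 ± 1.13 CPM in wild-type cells (SD, n = 3 each). The log2 fold change was 0.43 (SE 0.10, edgeR adjusted p = 0.0358), which did not pass the threshold. The list of DNA-sensing cofactors and nucleases had 27 genes, of which 23 were tested, Aim2 was called lower and none was called higher, with a median of 0.01. Its highest value was that of Dnase2a, the lysosomal DNase, at 0.44 (SE 0.13, edgeR adjusted p = 0.113).

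Of 20 genes of adaptor and kinase signalling, 18 were tested and none was called, with a median log2 fold change of −0.01. The range ran from −0.45 for Traf5 (edgeR adjusted p = 0.577), a signalling adaptor with 0.739 to 1.52 CPM in any library, to 0.40 for Ticam1 (edgeR adjusted p = 0.693), the adaptor of Toll-like receptor 3, with 0.849 to 1.82 CPM. Leaving out 1 library at a time moved Traf5 between −0.64 and −0.24 and Ticam1 between 0.21 and 0.68, with neither called. All 5 genes of the cell death arm of Zbp1 were tested and none was called, with a median of 0.04. Mlkl, which permeabilises the membrane, was lowest at −0.31 (edgeR adjusted p = 0.719), with −0.58 without ko clone 1 and −0.13 without ko clone 3. Casp8, the protease that restrains this arm, was highest at 0.12 (SE 0.37, edgeR adjusted p = 0.931) and rested on 1 culture. It was at 3.26, 3.08 and 9.88 CPM in the wild-type cultures and 6.38, 4.94 and 6.08 CPM in the ko clones, and without p56 its log2 fold change was 0.87 with an edgeR adjusted p of 0.00925, past the threshold.

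The products that the pathway induces were mostly not detected. Of 15 such genes, Ifnb1, Ifna2, Ifna4, Ifnl2, Ifnl3, Ccl5, Tnf and Isg15 were at 0 in all 6 libraries, beside 27.2% of all gene rows. A count of 0 allows up to 0.0404 CPM for each gene over the 6. That limit covers counting error only, and only reads that were assigned to the gene. Only 3 of the 15 were tested and none was called. Ifit2, an interferon-induced inhibitor of translation, was at 5.57 ± 0.689 CPM in ko and 5.88 ± 0.449 CPM in wild-type cells (SD, n = 3 each), with a log2 fold change of −0.08 (SE 0.16, 95% interval −0.43 to 0.28, edgeR adjusted p = 0.890). Nfkbia, the inhibitor of NF-kappaB, had 0.06 (edgeR adjusted p = 0.903), and Tnfaip3, the deubiquitinase A20, had −0.48 (edgeR adjusted p = 0.550) at 0.908 to 1.62 CPM.

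**Figure D5:**
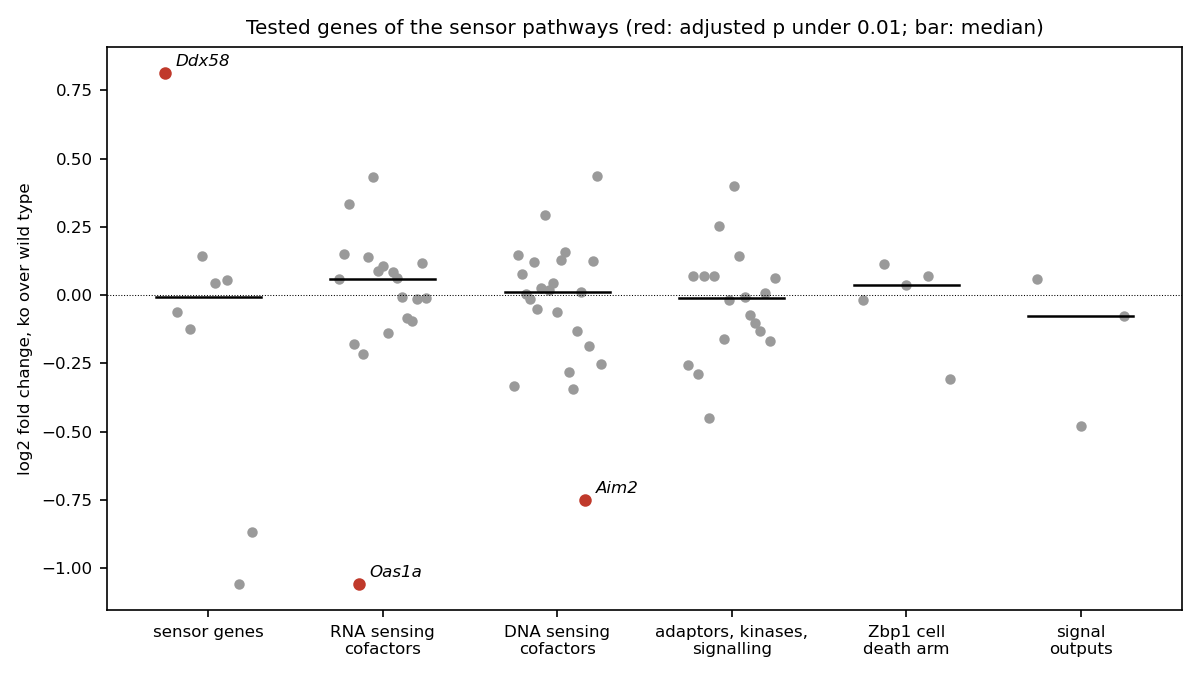
Log2 fold change of ko over wild type (vertical axis) for the tested sensor genes and the tested genes of the 5 pathway lists, with 1 point per gene, red for called genes and a bar at each median. The medians lie between −0.08 and 0.06, with Ddx58 above at 0.82 and Oas1a and Aim2 below at −1.06 and −0.75.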

How the data were processed

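Total RNA from 6 ES cell libraries was depleted of ribosomal RNA and sequenced in pairs with strand kept. The authors aligned reads to mm10 with STAR and deposited its raw counts per gene, with no normalization. Which annotation it used is not given in the sources used here. The column with the larger total was taken as sense, and the 4 lines of unassigned reads were left out. The authors tested genes with DESeq2, and their results were not used here. Rows were matched by symbol (8 genes) or another RefSeq symbol (Tmem173 as Sting1 and Mb21d1 as Cgas), and exon lengths came from GENCODE vM21.

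Counts were tested with edgeR 4.0.16 (R 4.3.3): quasi-likelihood test, TMM, filterByExpr (minimum count 10, minimum total 15), group as the only term, two-sided p adjusted by Benjamini-Hochberg over 12222 genes, threshold 0.01 as in the methods of the study. The SE is the size of the log2 change over the square root of F, and 95% intervals use the fit's degrees of freedom. CPM used TMM-scaled sizes. Ratios were compared with SciPy 1.17.1. The fit was tested on simulated data. Alternatives were DESeq2 1.42.0, limma-voom (limma 3.58.1), other scaling, filter, strand and threshold, and leaving out each library.

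The sensor genes and all lists were chosen with earlier results of these data known. Named genes were the 10 members, called list genes, the highest and lowest of each pathway list, and the neighbours and 3 nearest patterns of each called member. Intervals and limits cover counting or replicate error only, and at 10740618 to 14123131 counts per library Ifih1 and Zbp1 were too low to test.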

Additional observations from a re-analysis of the deposited data

How the results depend on the processing

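The sensor genes called numbered 1 in every fit except 2 of those that left out a library, which gave 0 to 1. The log2 fold change of Ddx58 ran from 0.71 to 0.92 over 13 alternatives, with the lowest and highest from leaving out a library, and it was past 0.01 in 11 of them. Over all genes, 156 calls became 254 with DESeq2, 286 with no filter on low counts, 331 at an adjusted p under 0.05, and 72 to 385 when 1 library was left out (72 without ko clone 3, 385 without p56), and the cause was not tested. Calls split 105 higher to 51 lower in the main fit and 170 to 116 with no filter. The direction of 3 genes near 0 turned when a library was left out: Mb21d1 ran from −0.087 (without p42) to 0.33, Casp8 from −0.17 to 0.87 and Nfkbia from −0.10 to 0.19. The other 6 tested sensor genes kept their direction and stayed above the threshold in all 13. The fits for pathway genes, markers and Morc3 were chosen after seeing the data. Their pathway calls numbered 1 to 3. Morc3 was not called with a robust fit (edgeR adjusted p = 0.0184), and Thy1 was not called in 5 fits that left out a library (edgeR adjusted p up to 0.0584). Dhx58, Ikbke and Mb21d1 had 5 to 56 counts per library, and their intervals span up to 0.84 to each side on the log2 scale. How far depth or the spread between cultures sets that width was not tested. Leaving out a library leaves 2 in its group. No paired analysis was possible because the names p42, p43 and p56 share no number with ko clones 1, 2 and 3.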
